A study of Mus musculus with 2 samples.

Results

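The MYC, MAX and MXD network was examined in the control RNA-Seq of LPS-stimulated macrophages as 9 genes, taken by symbol from a table of 37451 genes. The genes are *Myc*, *Max*, *Mxd1*, *Mxd3*, *Mxd4*, *Mxi1*, *Mnt*, *Mga* and *Mlx*, and each was found once. Bone marrow-derived macrophages (BMDMs) were grown with CSF-1 from mice of 7 to 9 weeks, either C57BL/6 WT littermates or C57BL/6 TTP fl/fl LysMCre animals (ΔM). In ΔM mice the gene of the mRNA-destabilizing protein tristetraprolin (TTP), *Zfp36*, is deleted by a Cre recombinase that is driven from the lysozyme M locus and acts in myeloid cells. Both cultures received 100 μM 4-thiouridine for 16 h and 10 ng/ml LPS, a bacterial agonist of TLR4, for 6 h, and no unstimulated library was analysed here. The time of LPS is that of the treatment protocol, while the sample titles read LPS7, and the sources used here do not say what that stands for. Each genotype was represented by 1 library of rRNA-depleted RNA, and the number of mice behind a library is not given in the sources used here. With no replicates, no difference below has a replicate check or a p-value.

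MYC is a basic helix-loop-helix leucine zipper transcription factor that binds DNA at E-boxes (CACGTG) as a dimer with MAX and promotes growth, ribosome production and cell division. MXD1, MXD3, MXD4, MXI1 and MNT also pair with MAX but recruit SIN3 and histone deacetylases, so that they repress through the same DNA elements. MGA is a large MAX partner with an additional T-box domain, and MLX is a MAX-like protein that pairs with the glucose-sensing factors MondoA (*Mlxip*) and ChREBP (*Mlxipl*), with MNT and with some MXD proteins. In hematopoietic cells, a change from MYC to MXD1 as the partner of MAX accompanies the exit from proliferation into terminal differentiation.

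The values are FPKMs, which divide fragments by exon length and by the depth of the library. Levels of genes of different length can thus be set side by side within a library. The authors kept unique alignments only, so a gene with near-identical copies elsewhere can read too low, which was not tested here. From the steps between low FPKMs, the depth was about 36600000 fragments for WT and 32600000 for ΔM, and the approximate 95% counting intervals below use these depths with the median annotated transcript length of a gene. The intervals cover counting error only. The targeted gene *Zfp36* was at 65.3 FPKM in WT against 16.7 FPKM in ΔM. The macrophage markers *Cd68* (388 and 390 FPKM), *Csf1r* (104 and 119 FPKM) and *Emr1* (380 and 357 FPKM) were abundant in both libraries, and of 8 such markers the lowest was *Mertk* at 2.15 and 3.48 FPKM. *Lyz2*, the locus that carries the Cre gene, was at 2481 FPKM in WT against 1356 FPKM in ΔM, and the part of this difference in the results below was not tested. Summed markers of neutrophils (6 genes), fibroblasts (5), T cells (5), B cells (5) and dendritic cells (4) ranged from 0.10 to 1.04 FPKM per list in WT and from 0.18 to 0.80 FPKM in ΔM. *Cd4*, which monocyte-lineage cells can transcribe, made up nearly all of the T cell sum, and *Cd3e* and *Ly6g* were listed at 0 in both libraries.

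For *Mxd1*, a TTP site mapped by PAR-iCLIP, a crosslinking method that locates a protein on RNA, was listed with the study. All 9 network genes were looked up in that list by symbol, and *Mxd1* alone had a site. *Mxd1* was also the network gene past 1.5-fold below, after 1 FPKM was added, and a link between site and ratio was not tested. *Mxd1* (ENSMUSG00000001156) lies on chromosome 6 of mm9 (NCBIM37) from 86597038 to 86619153 on the minus strand, with 1 annotated transcript of 4662 nt. The listed site spans 6 nt, chr6:86599846-86599851, in the 3′ UTR, and begins 1014 nt after the stop codon in a 3′ UTR of 3827 nt. The window below is chr6:86599834-86599863 in the sense orientation, with the listed site in capitals.
Mxd1 listed TTP site: atactatttattCATTTTatataaactaat
The letters before the capitals include the heptamer UAUUUAU, the form that TTP is known to prefer, and 1 nt separates the heptamer from the site.

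The 3′ UTRs of the network genes were searched on the sense strand for AUUUA, the core of AU-rich elements, and for the heptamer UAUUUAU, which contains it. The longest annotated 3′ UTR of each gene was used. *Mxd1* held 5 AUUUA motifs, 2 of them within heptamers, and 16.9% of 19899 genes with an annotated 3′ UTR held at least as many. Its 3′ UTR was longer than that of 94.5% of these genes, and its 1.31 AUUUA per kb was below the 1.74 per kb over all of them. *Mxi1* had the most motifs, with 9 AUUUA in 4074 nt (2.21 per kb) and 0 heptamers. *Myc*, a classical short-lived mRNA, had 2 AUUUA in 466 nt, the highest density of the network at 4.29 per kb. *Mga* had 5 AUUUA in 4616 nt, *Mlx* 2 in 1042 nt, *Max* 1 in 1299 nt and *Mnt* 1 in 2405 nt, whereas *Mxd3* (615 nt) and *Mxd4* (3105 nt) had 0. Heptamers were present in 4 of the 9 genes, namely *Mxd1*, *Max*, *Mnt* and *Mga*, compared with 23.9% of all genes, and AUUUA in 7 of 9 compared with 61.4%. These comparisons do not allow for length, and a longer 3′ UTR offers more places for a motif. The 3′ UTRs of *Max*, *Mnt* and *Mga* were longer than those of 62.6%, 83.5% and 97.0% of genes. Those of *Mxi1* and *Mxd4*, without a heptamer, were longer than 95.5% and 90.2%.

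The other heptamers of the network and both pentamers of *Myc* are given on NCBIM37 in the sense orientation, with the motif in capitals, so that the letters around the motifs can be compared with those of the *Mxd1* site. The *Mxd1* window is chr6:86598565-86598594, that of *Max* chr12:78038750-78038779, that of *Mnt* chr11:74657828-74657857 and that of *Mga* chr2:119791919-119791948. The *Myc* windows are chr15:61821690-61821719 and chr15:61821827-61821856.
Mxd1 second heptamer: aagcccctggaTATTTATatgtgaaagttc
Max heptamer: tgatgttttgaTATTTATttcctgctactg
Mnt heptamer: ttttaagtggaTATTTATtacaagtggcct
Mga heptamer: aaagatgaagaTATTTATatttttgtatag
Myc first pentamer: taacagatttgtATTTAattgtttttttaa
Myc second pentamer: ataattttttttATTTAaagacattttcat

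**Figure D1:**
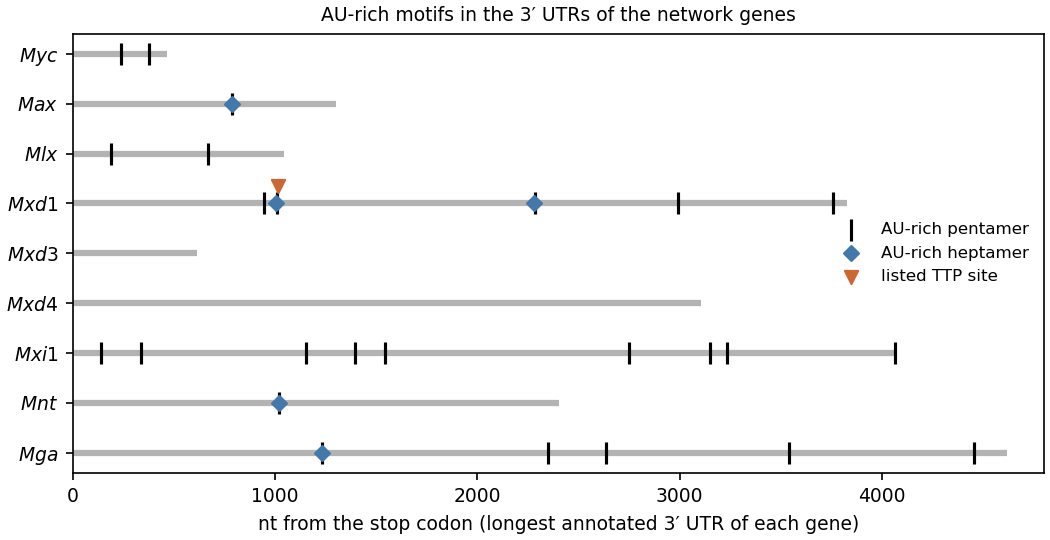
AU-rich motifs along the longest annotated 3′ UTR of each network gene, in nt from the stop codon. Gray lines are 3′ UTRs, ticks are AUUUA pentamers, diamonds are UAUUUAU heptamers and the triangle is the TTP site listed for *Mxd1*, which lies beside the first of its 2 heptamers.

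In LPS-stimulated BMDMs the network transcripts were dominated by *Mlx*, *Mxd1* and *Max*, and *Myc* itself was represented by few fragments. *Mxd1* was at 1.77 times its WT level in ΔM, beyond counting error, while the ratios of *Max* and *Mlx* were 1.16 and 1.09. The remaining MAX partners were at or below 3.67 FPKM in both libraries.

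*Myc* (ENSMUSG00000022346, chromosome 15, 61816946 to 61821929, plus strand) was at 0.20 FPKM in WT against 0.29 FPKM in ΔM. These values rest on about 13 and 17 fragments, and the counting intervals, 0.105 to 0.336 FPKM and 0.168 to 0.463 FPKM, overlapped. The level of *Myc* exceeded that of 52.5% of the 22259 protein-coding genes in WT and 54.6% in ΔM. The ratio of ΔM to WT was 1.45, and counting error alone left it anywhere from 0.672 to 3.29. The paralogs were also low, and 1 of them, *Mycl1*, reached a mean of 1 FPKM. *Mycn* was at 0.20 and 0.08 FPKM. *Mycl1* was at 1.71 FPKM in WT, above *Myc* in that library, and at 0.47 FPKM in ΔM, 0.275 times the WT level with a counting interval from 0.109 to 0.603 that rests on about 33 and 8 fragments, and it was past 1.5-fold also after 1 FPKM was added.

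*Max* (ENSMUSG00000059436, chromosome 12, 78038256 to 78063235, minus strand), the shared dimerization partner, was at 12.5 FPKM in WT against 14.5 FPKM in ΔM. *Max* was thus 62.6 times as abundant as *Myc* in WT (37.2 to 119 from the counting interval of *Myc*) and 50.1 times in ΔM (31.4 to 86.3). The ratio of ΔM to WT was 1.16 (counting interval 1.05 to 1.28). The intervals of the FPKMs, 11.7 to 13.4 and 13.6 to 15.6, did not overlap, but they did with the shortest annotated transcript (752 nt) as the length of the gene, at 11.0 to 14.1 FPKM and 12.8 to 16.4 FPKM.

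*Mlx* (ENSMUSG00000017801, chromosome 11, 100948591 to 100953521, plus strand) was the most abundant gene of the network, at 40.6 FPKM in WT against 44.4 FPKM in ΔM. It ranked above 95.8% of protein-coding genes in WT and 96.1% in ΔM. The intervals, 37.7 to 43.7 and 41.1 to 47.8 FPKM, overlapped. With the longest transcript as the length of *Mlx*, they were 39.1 to 42.2 and 42.7 to 46.1 FPKM and did not. *Mlx* has 7 annotated transcripts with a median of 679 nt and a maximum of 1965 nt, so the number of fragments behind its FPKM is uncertain. Of its partners, *Mlxip* was at 3.11 FPKM in WT against 2.33 FPKM in ΔM, a ratio of 0.749 (0.645 to 0.871), and *Mlxipl* was listed at 0 in both libraries.

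**Figure D2:**
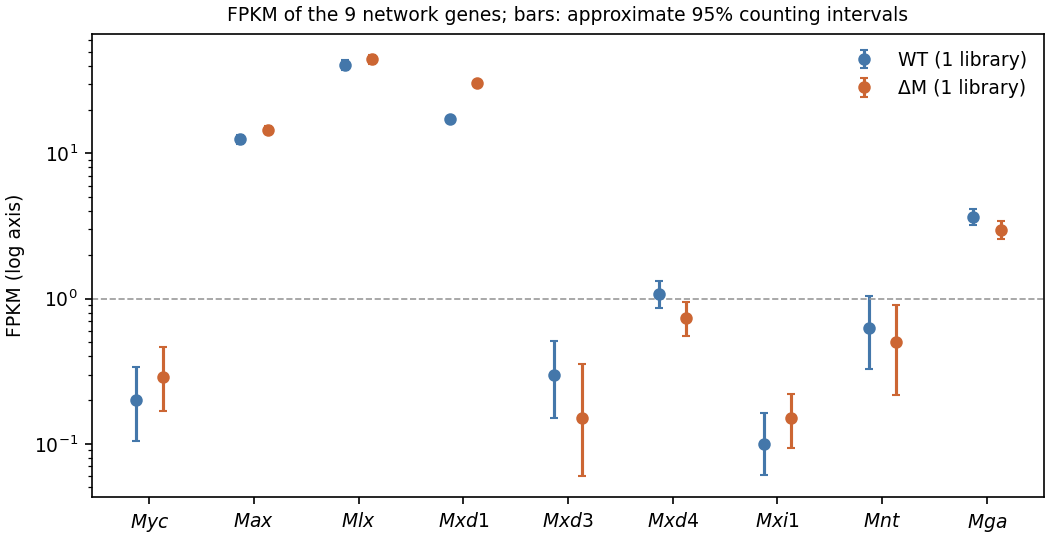
FPKM of the 9 network genes in the WT and the ΔM library on a log axis, with approximate 95% counting intervals as bars and 1 FPKM as a dashed line. *Mlx*, *Mxd1*, *Max* and *Mga* lie above 1 FPKM in both libraries, and *Mxd1* shows the widest gap between the libraries beyond its intervals.

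*Mxd1*, the MXD repressor of differentiated myeloid cells, was at 17.1 FPKM in WT against 30.3 FPKM in ΔM. The counting intervals were 16.5 to 17.8 FPKM and 29.4 to 31.2 FPKM, from about 2801 and 4413 fragments. The ratio was 1.77 (1.69 to 1.86), or 0.79 on the log2 scale after adding 1 FPKM to both values, and 2.35% of 8078 protein-coding genes, those whose mean FPKM reached 1, had a higher log2 ratio. *Mxd1* was the gene of the network with the most fragments by this count, and its single annotated transcript leaves no choice of length. In WT its level exceeded *Max* by 1.37 times, and in ΔM by 2.09 times. RNA from whole cultures does not tell more cells with *Mxd1* from more *Mxd1* RNA per cell.

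The other MXD genes were each below 1.1 FPKM in both libraries. *Mxd4* (ENSMUSG00000037235, chromosome 5) was at 1.07 FPKM in WT against 0.73 FPKM in ΔM, a ratio of 0.682 (0.477 to 0.960), with intervals of the FPKMs that overlapped. They did not overlap with the longest transcript (3872 nt) as its length, at 0.903 to 1.26 FPKM and 0.582 to 0.896 FPKM. *Mxd3* (ENSMUSG00000021485, chromosome 13), a member linked to proliferating cells, was at 0.30 FPKM in WT against 0.15 FPKM in ΔM, from about 12 and 6 fragments. The interval of its ratio ran from 0.173 to 1.62. *Mxi1* (ENSMUSG00000025025, chromosome 19) was the lowest gene of the network, at 0.10 FPKM in WT against 0.15 FPKM in ΔM, from about 18 and 23 fragments. For *Mxd3* and *Mxi1* the intervals overlapped, so neither differed detectably at this depth. The 3 genes summed to 1.47 FPKM in WT against 1.03 FPKM in ΔM, far below *Mxd1* alone. The annotated *Mxd3* gene overlaps *Prelid1*, and *Mxi1* and *Mlx* overlap *Gm10197* and *Psmc3ip*, each on the opposite strand. Whether counting used the strand is not given in the sources used here.

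*Mnt* (ENSMUSG00000000282, chromosome 11, 74644422 to 74659227, plus strand), the broadly expressed MAX partner and repressor, was at 0.63 FPKM in WT against 0.50 FPKM in ΔM. The intervals, 0.326 to 1.05 and 0.218 to 0.907 FPKM, overlapped, as they did with the longest transcript (4590 nt) in place of the median of 777 nt. *Mga* (ENSMUSG00000033943, chromosome 2, 119722964 to 119795317, plus strand) was the second most abundant repressor, at 3.67 FPKM in WT against 2.98 FPKM in ΔM, a ratio of 0.812 (0.670 to 0.986). Its intervals, 3.24 to 4.15 and 2.57 to 3.45 FPKM, overlapped with the median transcript length of 2110 nt. *Mga* has 15 annotated transcripts, of which 5 are protein-coding with at least 6995 nt, and with this length the intervals were 3.44 to 3.92 and 2.76 to 3.22 FPKM and did not overlap.

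In both libraries the order of levels began with *Mlx*, *Mxd1*, *Max*, *Mga*, *Mxd4* and *Mnt*. The intervals of neighbours in this order were apart from *Mlx* down to *Mxd4*, whereas *Mxd4* and *Mnt* overlapped in each library. *Mxd3*, *Myc* and *Mxi1* followed in WT, whereas in ΔM *Myc* was followed by *Mxd3* and *Mxi1* at the same value, and the intervals of neighbours from *Mnt* on overlapped in each library. The summed FPKM of the network was 76.3 in WT and 94.0 in ΔM. *Mlx* held 53.3% of this sum in WT and 47.2% in ΔM, *Mxd1* 22.5% and 32.3%, and *Max* 16.4% and 15.5%. The 6 repressors (*Mxd1*, *Mxd3*, *Mxd4*, *Mxi1*, *Mnt* and *Mga*) summed to 22.9 FPKM in WT against 34.8 FPKM in ΔM, which is 1.83 and 2.40 times *Max*. Without *Mxd1* the sums were 5.77 and 4.51 FPKM, or 0.461 and 0.310 times *Max*, so that the sum of the repressors was higher in ΔM with *Mxd1* and lower without it. Relative to *Myc*, the 6 repressors were at 115 times its level in WT (68.1 to 219 from the counting interval of *Myc*) and at 120 times in ΔM (75.3 to 207).

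**Figure D3:**
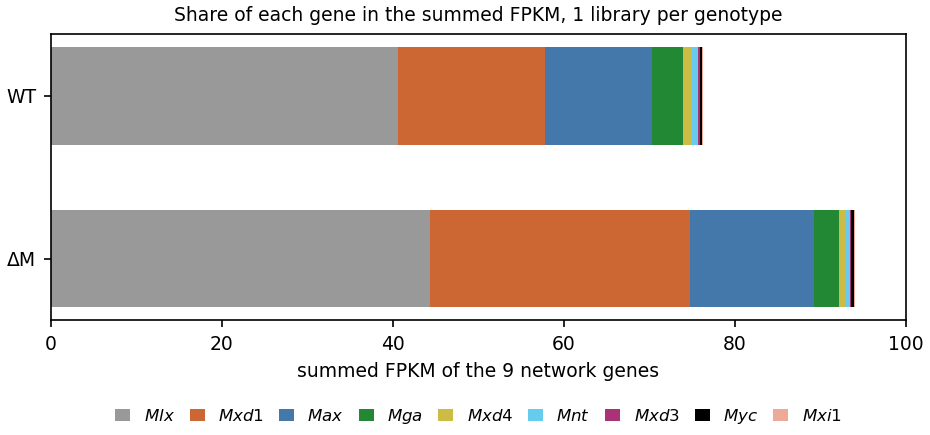
Summed FPKM of the 9 network genes in each library, divided by gene. The WT bar ends at 76.3 FPKM and the ΔM bar at 94.0 FPKM, and the segment of *Mxd1* accounts for most of the difference.

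Log2 ratios of ΔM to WT after adding 1 FPKM were set beside those of the 8078 protein-coding genes whose mean FPKM reached 1. Of the 9 network genes, 4 reached this mean (*Max*, *Mxd1*, *Mga* and *Mlx*) and 5 did not, and adding 1 FPKM draws the ratios of those 5 toward 0. These ratios were 0.79 for *Mxd1*, 0.20 for *Max*, 0.12 for *Mlx* and 0.10 for *Myc*. They were 0.06 for *Mxi1*, -0.12 for *Mnt* and -0.18 for *Mxd3*. *Mga* was at -0.23 and *Mxd4* at -0.26. The median of the 9 was 0.06, compared with -0.0015 over the 8078 genes. Of the 9 genes, 5 were higher in ΔM, compared with 49.5% of the 8078. *Mxd1* was the 1 gene of the network at least 1.5-fold higher in ΔM, which 4.80% of the 8078 genes were, and 0 of the 9 were at least 1.5-fold lower, compared with 5.36%. None of the 9 differed by 2-fold in either direction, which 2.51% of the 8078 genes did. These shares are over genes that reached the mean, which 5 of the 9 did not. *Myc*, *Mxd3* and *Mxi1*, at 0.30 FPKM or less in WT, could not be 1.5-fold lower on this scale even at 0 FPKM in ΔM. Without the added FPKM, *Mxd3* was at 0.5 times its WT level in ΔM (0.173 to 1.62). Counting intervals did not overlap for 2 of the 9, *Max* and *Mxd1*, compared with 37.0% of the 8058 genes for which intervals could be calculated. For *Mxd1* the choice of transcript length was no check, because its 1 annotated transcript gives the same interval under each choice.

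**Figure D4:**
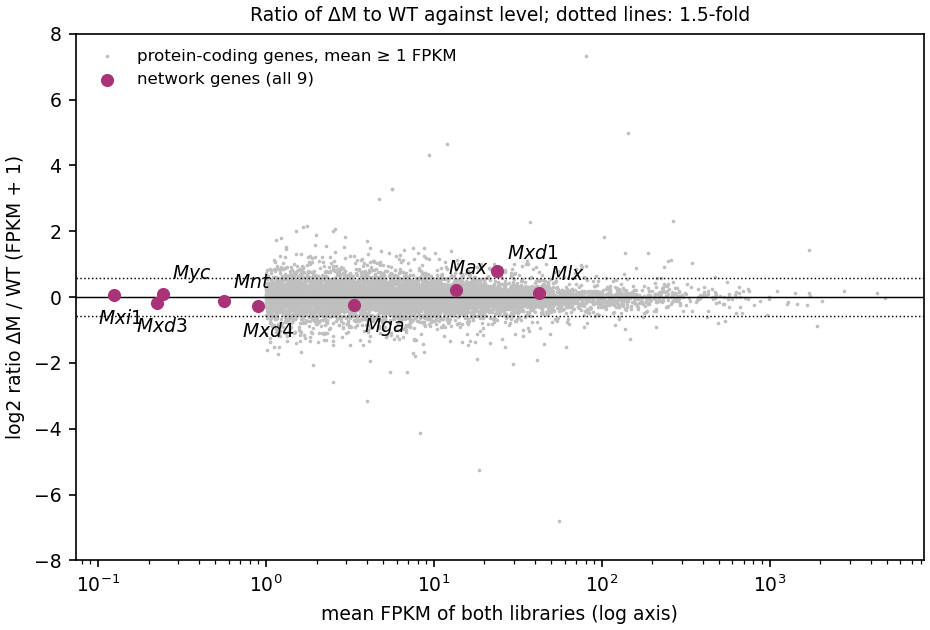
Log2 ratio of ΔM to WT, after adding 1 FPKM, against the mean FPKM on a log axis. Gray points are the 8078 protein-coding genes, purple points are the 9 network genes and dotted lines mark 1.5-fold. *Mxd1* lies above the upper line and the other 8 genes lie between the lines.

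Repression by MXD1 and MNT runs through the SIN3 corepressor, a scaffold for histone deacetylases. All 14 genes of this list were found and 11 reached a mean of 1 FPKM, with a median log2 ratio of -0.04. After 1 FPKM was added, the scale of this and the following counts, at least 1.5-fold higher in ΔM was 1 of the 11, *Rbbp4*, a histone-binding subunit, at 4.30 FPKM in WT against 10.8 FPKM in ΔM. At least 1.5-fold lower were 0, and over all 8078 genes the shares were 4.80% higher and 5.36% lower. The most abundant scaffold, *Sin3b*, was at 65.1 FPKM in WT against 56.8 FPKM in ΔM, and *Sap30* at 36.4 and 33.1 FPKM. The other scaffold, *Sin3a*, was at 7.41 and 5.04 FPKM (ratio 0.680, 0.621 to 0.744), and *Arid4b* at 3.50 and 2.29 FPKM, which is 1.53-fold lower in ΔM without the added FPKM. The lowest of the 11 by WT level, *Rbbp7*, was named after its value was seen, and was at 1.13 and 1.44 FPKM, above *Mxd3* and *Mxi1* in both libraries. Its interval in WT (0.841 to 1.49 FPKM) overlapped that of *Mxd4*.

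Coactivators that MYC recruits, such as histone acetyltransferase complexes and the elongation kinase CDK9 with cyclin T1, had a median log2 ratio of -0.02 over the 10 of 11 genes that reached the mean. None of the 10 passed 1.5-fold. *Ccnt1* was at 18.2 FPKM in WT against 14.4 FPKM in ΔM, and the acetyltransferase *Kat5* at 15.4 and 15.1 FPKM. *Ep400* was at 15.0 and 17.6 FPKM, and the adaptor *Trrap* at 3.79 and 4.77 FPKM. Genes for the turnover of MYC protein, which include the ubiquitin ligases *Huwe1* (21.6 and 23.8 FPKM) and *Fbxo28* (2.49 and 1.93 FPKM) and the kinase *Gsk3b* (10.2 and 9.72 FPKM), had a median of -0.02 over 8 of 12, again with 0 past 1.5-fold on this scale. *Fbxl14* was at 1.35 and 2.05 FPKM, which is 1.52-fold higher in ΔM without the added FPKM. *Trim32*, at 1.11 FPKM in WT, was at 1.35 times that level in ΔM. Among genes below the mean, *Aurka* (0.16 and 0.77 FPKM) was 4.81-fold higher and *Usp36* (1.12 and 0.66 FPKM) 1.70-fold lower without the added FPKM. Intervals were apart for *Fbxl14*, *Aurka* and *Usp36*, and *Aurka* and *Usp36* were named after their values were seen.

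MGA works in a variant Polycomb complex that silences germline genes. Of its 11 listed partners, 7 reached the mean, with a median log2 ratio of 0.06. At least 1.5-fold higher in ΔM was 1 of the 7 and 0 were lower, beside 4.80% and 5.36% of all 8078 genes. The gene was *E2f6*, the DNA-binding subunit, at 0.23 FPKM in WT against 11.0 FPKM in ΔM. The ratio was 47.9 (25.3 to 107) and rests on about 9 fragments in WT, with a length of 1282 nt. *E2f6* has 2 annotated transcripts, of 2421 and 143 nt, and the shorter is below the mean fragment length. The fragments behind its FPKMs, and so the interval, are therefore uncertain. How the fragments were shared between the 2 transcripts is not given in the sources used here, so the FPKMs and the ratio may be uncertain as well. The methyltransferase *Ehmt2* was the most abundant, at 59.4 and 61.9 FPKM, and *Wdr5* was at 9.57 and 9.56 FPKM. *L3mbtl2* was at 6.22 and 8.71 FPKM, and *Ring1* at 6.37 and 7.10 FPKM. *Mga* itself was lower in both libraries than these 4 partners, which were named for their WT level or ratio, and than *Ehmt1*. *Rnf2* (2.75 and 2.68 FPKM), *Tfdp1*, *Rybp*, *Pcgf6* (0.13 and 0.13 FPKM) and *Cbx3* were lower than *Mga* in both libraries. For *Rnf2* in ΔM the interval, 2.35 to 3.03 FPKM, overlapped that of *Mga*, 2.57 to 3.45 FPKM. The values of *Cbx3* rest on about 4 and 2 fragments. *E2f6* was lower than *Mga* in WT only. *Ehmt1* and the partners below *Mga* in both libraries were named after their values were seen.

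Textbook targets that MYC activates, mainly genes of ribosome production, nucleotide synthesis and the cell cycle, were found for 33 of 34 names. Of these, 22 reached the mean, 9 of them with a higher and 13 with a lower value in ΔM, and their median log2 ratio was -0.07. At least 1.5-fold higher was 1, *Cad*, whose enzyme starts pyrimidine synthesis, at 1.15 FPKM in WT against 2.73 FPKM in ΔM. At least 1.5-fold lower were 2. *Nop56*, a nucleolar protein gene whose introns hold snoRNAs, was at 45.8 FPKM in WT against 22.3 FPKM in ΔM, and the cyclin gene *Ccnd2* was at 6.49 and 2.89 FPKM (ratio 0.445, 0.401 to 0.493). *Ldha*, the lactate dehydrogenase gene, was at 33.3 and 40.2 FPKM. Without the added FPKM, *Cdc25a* (2.16 and 1.18 FPKM, 1.83-fold lower) and *Nop58* (2.40 and 1.42 FPKM, 1.69-fold lower) were also past 1.5-fold with intervals apart. Among genes below the mean, *Shmt2* (0.45 and 0.98 FPKM, 2.18-fold higher) and *Ppat* (0.46 and 0.77 FPKM, 1.67-fold higher) went the other way, with intervals apart. *Cdc25a*, *Nop58*, *Shmt2* and *Ppat* were named after their values were seen. On the scale with 1 FPKM added, the shares over all 8078 genes were 4.80% higher and 5.36% lower.

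Among 6 genes that MYC is known to repress, 4 reached the mean. The cell cycle inhibitor *Cdkn1a* was at 155 FPKM in WT against 156 FPKM in ΔM. *Ndrg1*, a stress-induced gene, was at 77.4 and 198 FPKM (ratio 2.55, 2.38 to 2.74) and was the 1 of the 4 past 1.5-fold, beside 4.80% of all 8078 genes higher and 5.36% lower. *Gadd45a* was at 7.57 and 4.74 FPKM, just short of 1.5-fold lower with the added FPKM, and *Cdkn1b* at 2.80 and 2.14 FPKM. Of 6 targets of MLX with MondoA or ChREBP, 4 reached the mean, and 1, the fatty acid synthesis gene *Acaca*, was past 1.5-fold, beside the same shares of all genes, at 5.15 FPKM in WT against 12.9 FPKM in ΔM. The glucose-responsive arrestin genes *Txnip* (55.8 and 48.0 FPKM) and *Arrdc4* (8.11 and 8.55 FPKM) and the synthase gene *Fasn* (3.33 and 2.56 FPKM) were not.

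**Figure D5:**
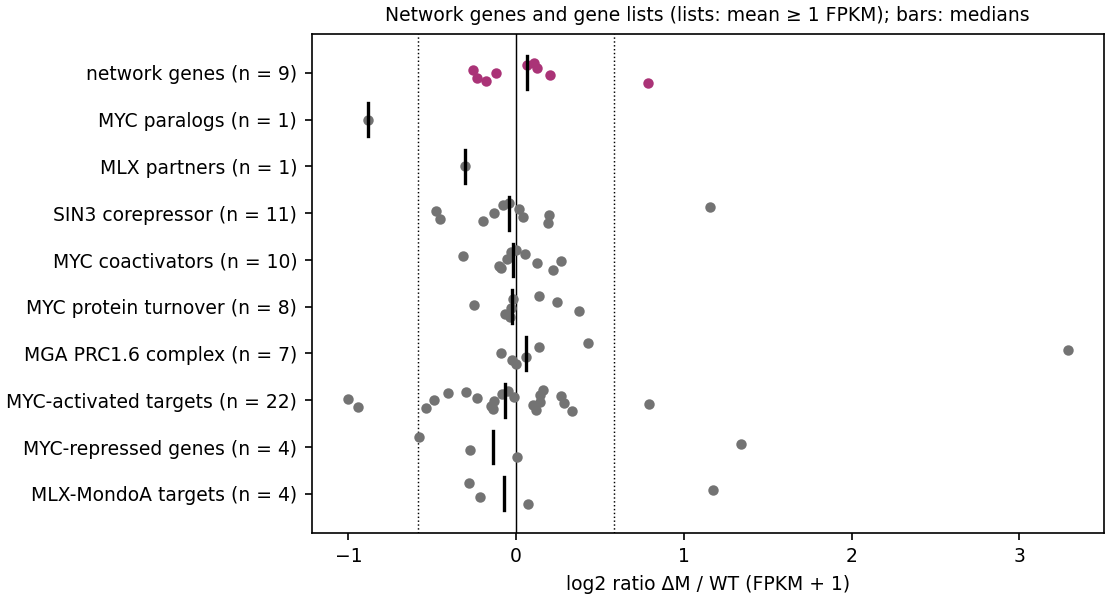
Log2 ratio of ΔM to WT, after adding 1 FPKM, for all 9 network genes (purple) and for the genes of each list that reached a mean of 1 FPKM (gray). Bars are medians and dotted lines mark 1.5-fold. The medians of the 7 lists with more than 1 gene lie between -0.14 and 0.06, and single genes such as *E2f6*, *Ndrg1* and *Nop56* lie far from them.

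E-boxes were searched in RefSeq promoters of GRCm38.p6, from 250 nt before to 50 nt after the start of a transcript, as the palindrome CACGTG, which reads the same on both strands. Promoters were held for 8 of the 9 network genes, all but *Myc*. An E-box was present in 4 of them, *Max*, *Mlx*, *Mnt* and *Mxd4*, compared with 8.09% of the 27025 genes and 7.15% of all promoters in the table, and in 7 of 27 activated targets of MYC. In the other lists it was present for 0 of 5 MYC-repressed genes, 0 of 2 paralogs, 1 of 2 MLX partners, 1 of 11 SIN3 genes, 1 of 10 coactivators, 1 of 11 turnover genes, 2 of 10 MGA partners and 1 of 5 MLX targets. An E-box was not found in the windows of *Mxd1*, *Mxd3*, *Mxi1* (3 promoters) and *Mga*. The matches are shown because the network is known to bind such elements, and these data hold no measure of binding. The window of *Max* is chr12:76962234-76962263 (minus strand), that of *Mlx* chr11:101087238-101087267 (plus strand), that of *Mnt* chr11:74830789-74830818 (plus strand) and that of *Mxd4* chr5:34187912-34187941 (minus strand), with the E-box in capitals.
Max E-box: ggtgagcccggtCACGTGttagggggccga
Mlx E-box: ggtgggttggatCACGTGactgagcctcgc
Mnt E-box: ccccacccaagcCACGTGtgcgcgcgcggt
Mxd4 E-box: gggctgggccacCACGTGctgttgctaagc
The E-box of *Max* begins at -3 and that of *Mlx* at -40 relative to the start, and those of *Mnt* and *Mxd4* begin at -123 and -219.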

How the data were processed

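Adaptors were trimmed by the authors, and reads were aligned with Segemehl to mm9. From unique alignments they obtained gene expression with Cufflinks and Ensembl exons. The values they deposited are FPKMs with 2 decimals, and 1 cell holds no number.

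GENCODE M1 on NCBIM37 held 37039 of the identifiers. Depth and mean fragment length (198 nt in WT, 200 nt in ΔM) were those at which low FPKMs of genes with 1 transcript of 300 to 700 nt became whole fragments. Within 0.1 fragment, 92.9% of 1025 values in WT and 92.7% of 1027 in ΔM were whole, where evenly spread values give 20%. Intervals (95%) were Poisson for FPKMs and Clopper-Pearson for ratios, and were tested on simulated data.

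Named genes are the 9 network genes, *Zfp36*, paralogs, MLX partners and, from each list, the 3 largest ratios (mean FPKM of 1 or more) and 2 highest WT levels. Markers were named after their values were seen. Network genes and lists were chosen with earlier results of these data known. Alternatives covered pseudocount, scaling, filter, gene types and transcript length. Python 3.11.15 with numpy 2.4.6, scipy 1.17.1, matplotlib 3.10.9 and pandas 2.3.3 was used.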

Additional observations from a re-analysis of the deposited data

How the results depend on the processing

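No paired analysis was possible because each genotype has a single library, so that leaving one out was not possible either. Of the 36 recomputed log2 ratios of network genes, 35 stayed within the counting interval of the gene or did not move. The exception was *Mxd1* at 0.67 with 5 FPKM added. For genes with few fragments the intervals are so wide that staying within them is a weak check. *Mxd3*, with a ratio interval of 0.173 to 1.62, went from -0.18 to -0.68 with 0.1 FPKM added and still counted as within it. These settings could not test the sign of a ratio, because adding the same FPKM to both values never changes it. Centring and rescaling shifted the ratios by far less than the smallest of them, 0.06 for *Mxi1*.

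Of the network genes, 1 was past 1.5-fold in the main calculation and 2, *Mxd1* and *Mxd3*, with 0.1 FPKM added. Counting intervals were apart for 2 genes in the main calculation, for 5 with the longest transcript as length and again for 2, *Mxd1* and *Mga*, with the shortest protein-coding transcript. Of the 8078 protein-coding genes, 8058 had intervals in the main calculation, and the intervals were apart for 2982 of these. They were apart for 4009 genes with the longest transcript and for 2483 with the shortest protein-coding transcript. How many genes had intervals under these other lengths is not given here, so the counts may not be shares of the same set of genes. The sum of the repressors relative to *Myc* was 28.9 in WT and 15.6 in ΔM without *Mxd1*.

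Over all genes, 821 were past 1.5-fold and 203 past 2-fold. These numbers were 1298 and 409 with 0.1 FPKM added, 233 and 44 with 5 FPKM added, 217 and 48 with a minimum mean of 10 FPKM, where fewer genes were counted, and 2009 and 1002 over genes of every type. Genes higher in ΔM numbered 4000, with 1418 at a minimum of 10 FPKM and 8399 without a minimum. Centring, which shifts each ratio by the median of -0.0015, and rescaling to equal protein-coding sums (213751 FPKM in WT, 213079 FPKM in ΔM) moved no result beyond these limits. Depth limits *Myc*, *Mxd3*, *Mxi1* and *Mnt* most, with 6 to 23 fragments per library by the median transcript length. With its longest transcript, *Mnt* had 101 and 72 in place of 13 and 9.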
